A study of Mus musculus with 12 samples.

Results

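The 49 genes described here are the chemokines and chemokine receptors that could be followed in mouse liver after an acetaminophen overdose, in mice with and without Pml. They are 31 ligands, 16 signalling receptors and 2 atypical receptors, out of 17052 genes tested on the array. Members were the genes whose symbol is Ccl, Cxcl, Cx3cl, Xcl, Ccr, Cxcr, Cx3cr or Xcr followed by digits, or Ackr followed by a digit. They also needed a probe set of their own with a mean log2 intensity of at least 5 over the 12 arrays. Of 54 genes with such a name and a probe set of their own, 5 stood below that level. Cxcr5, Ccl12 and Ccr8 passed it most narrowly, with mean log2 intensities of 5.07, 5.11 and 5.11. Ccl26 and Ackr3 stood just under it at 4.96 and 4.84, and Ccl8, Cxcl15 and Cxcr3 lay lower at 4.62, 4.49 and 4.40. Ccl21, Ccl27 and Ackr4 shared their probe sets with other symbols and are not analysed here.

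The 12 liver samples were from BALB/cByJ females, 2.5 months old, with 1 array per sample and 2 arrays in each of 6 groups. The groups were Pml KO and Pml wt mice, each untreated, 2 h after acetaminophen (APAP) or 6 h after it. APAP was injected intraperitoneally at 300 mg/kg in warmed PBS. The sources used here give neither the deleted stretch of Pml nor a vehicle injection of the untreated mice. They do not say that the 2 samples of a group came from separate animals, so the p-values speak only of the spread among these samples. RNA was taken from whole liver, where fewer cells of a type and less RNA per cell cannot be told apart.

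Chemokines are small secreted proteins that guide leukocytes along a gradient by engaging G protein-coupled receptors on those cells. In injured liver they are made by Kupffer cells, the resident macrophages, and by endothelium, stellate cells and hepatocytes. CXC ligands with a glutamate-leucine-arginine motif recruit neutrophils, several CC ligands recruit monocytes, and the ligands of Cxcr3 are induced by interferons and recruit T and NK cells. Atypical receptors bind chemokines without the usual signalling and set how much of them is available. An APAP overdose is converted to a reactive metabolite in hepatocytes around the central vein, and the death of those cells is followed by entry of neutrophils and then monocytes. PML is the scaffold of nuclear bodies that take part in stress and interferon responses.

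The median intensity of an array lay between 79.9 and 90.1, and precision is limited by how few arrays there are. The 5 hepatocyte markers, Alb among them, had a summed intensity of 35700 to 41760 on every array. Across tested genes, which are not independent replicates, log2 values correlated at 0.985 to 0.993 within groups and at 0.915 to 0.992 between groups. The 2 KO arrays at 6 h stood apart from each other, at 39.67 and 19.77 on the first principal component of all tested genes (49.4% of the variance), where the wt arrays at 6 h stood at 44.83 and 42.93. Log2 intensity of Pml was 7.10 and 7.97 in untreated KO liver against 8.18 and 8.46 in untreated wt liver. At 2 h Pml had 7.11 and 7.50 in KO liver against 7.82 and 7.92 in wt liver, and at 6 h 7.09 and 7.16 in KO liver against 7.87 and 7.88 in wt liver. The lower KO value was not called at any of these times (adjusted p = 1, 0.184 and 0.0715), and untreated KO replicate 2 lay above the wt arrays at 2 h and 6 h. Whether the probe set lies in the deleted stretch is not known, so Pml checks the genotype labels only in part.

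Most members had low signals. The mean log2 intensity of 36 of the 49 was under 7, and of 23 it was under 6. A gene was called when its adjusted p, from limma's fit of the 6 group means and over all 17052 genes, was under 0.05. At 2 h after APAP, 9 of 49 members were called in KO liver, 1 higher and 8 lower, beside 31.4% of all tested genes. In wt liver at 2 h, 10 were called, 3 higher and 7 lower, beside 12.7% of all genes (6.53% higher and 6.17% lower). At 6 h, 13 members were called in KO liver, 5 higher and 8 lower, beside 34.9% of all genes. In wt liver at 6 h, 19 were called, 14 higher and 5 lower, beside 38.4% of all genes. The share of members called at 6 h in wt liver, 38.8%, was thus that of all genes, and it leaned upwards: 28.6% of members rose against 16.5% of all genes, and 10.2% fell against 22% of all genes. In KO liver the share of members was below the background at both times, at 18.4% and 26.5%. With quantile normalization, the 2 h calls in KO liver split into 2 higher and 7 lower.

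**Figure D1:**
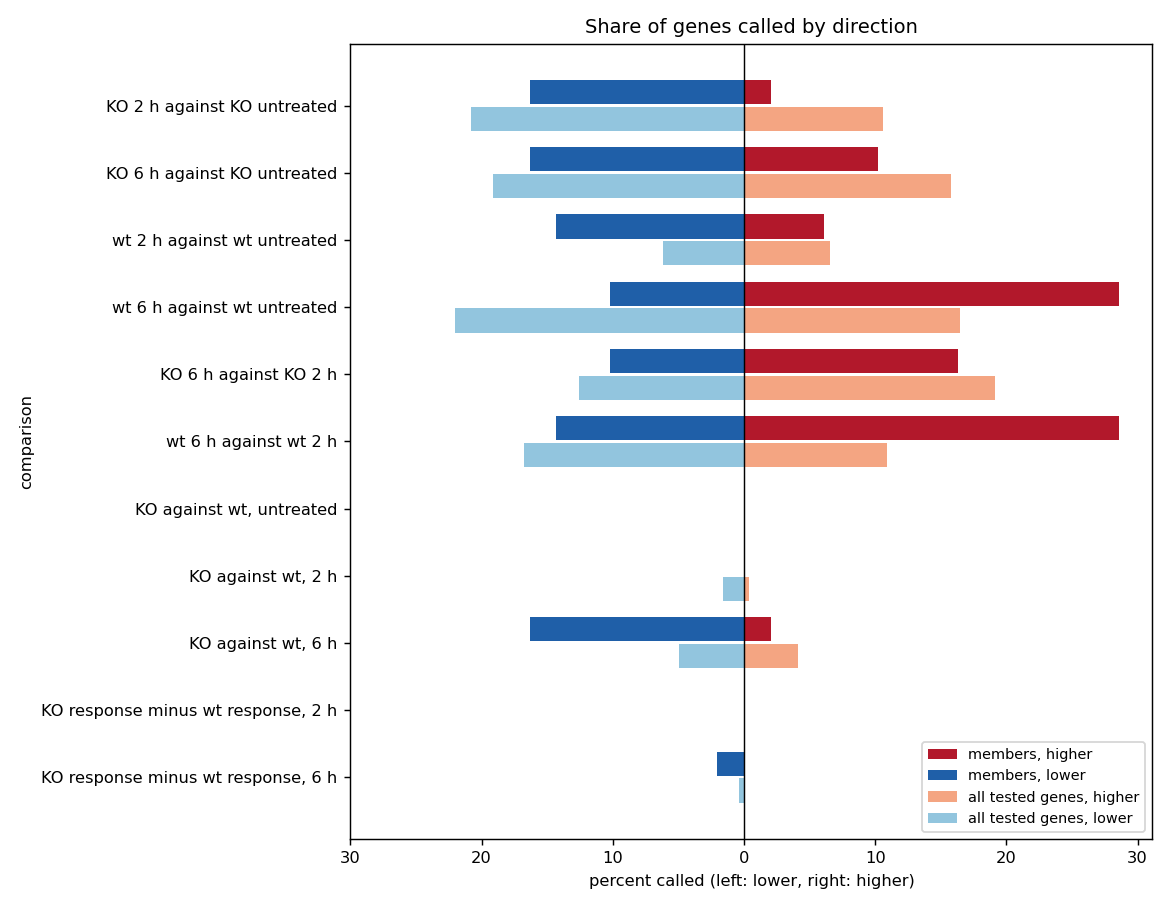
Percent of the 49 members (dark bars) and of the 17052 tested genes (pale bars) called at an adjusted p under 0.05 in each of the 11 comparisons, with lower calls to the left and higher calls to the right. Members stood above the background to the right at 6 h in wt liver (28.6% against 16.5%) and to the left for KO against wt at 6 h (16.3% against 4.93%).

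From 2 h to 6 h, 13 members were called in KO liver, 8 higher and 5 lower, beside 31.7% of all genes. Over the same interval 21 were called in wt liver, 14 higher and 7 lower, beside 27.7% of all genes (10.9% higher and 16.8% lower), and with quantile normalization the wt split was 14 and 2. Between KO and wt liver, 0 members were called before treatment by limma, where 0.00586% of all genes were called and 5 members had an unadjusted p under 0.05. At 2 h the count was also 0, beside 2.01% of all genes (0.411% higher and 1.6% lower), again with 5 members at an unadjusted p under 0.05. At 6 h, 9 members differed between genotypes, 1 higher and 8 lower in KO liver, beside 9.02% of all genes (4.09% higher and 4.93% lower). The difference between the responses of KO and wt liver was called for 0 members at 2 h by limma (0.0293% of all genes, 0.0117% higher and 0.0176% lower), where 5 had an unadjusted p under 0.05, and for 1 at 6 h (0.487% of all genes). In all, 35 members were called in at least 1 of these 11 comparisons and 14 in none.

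**Figure D2:**
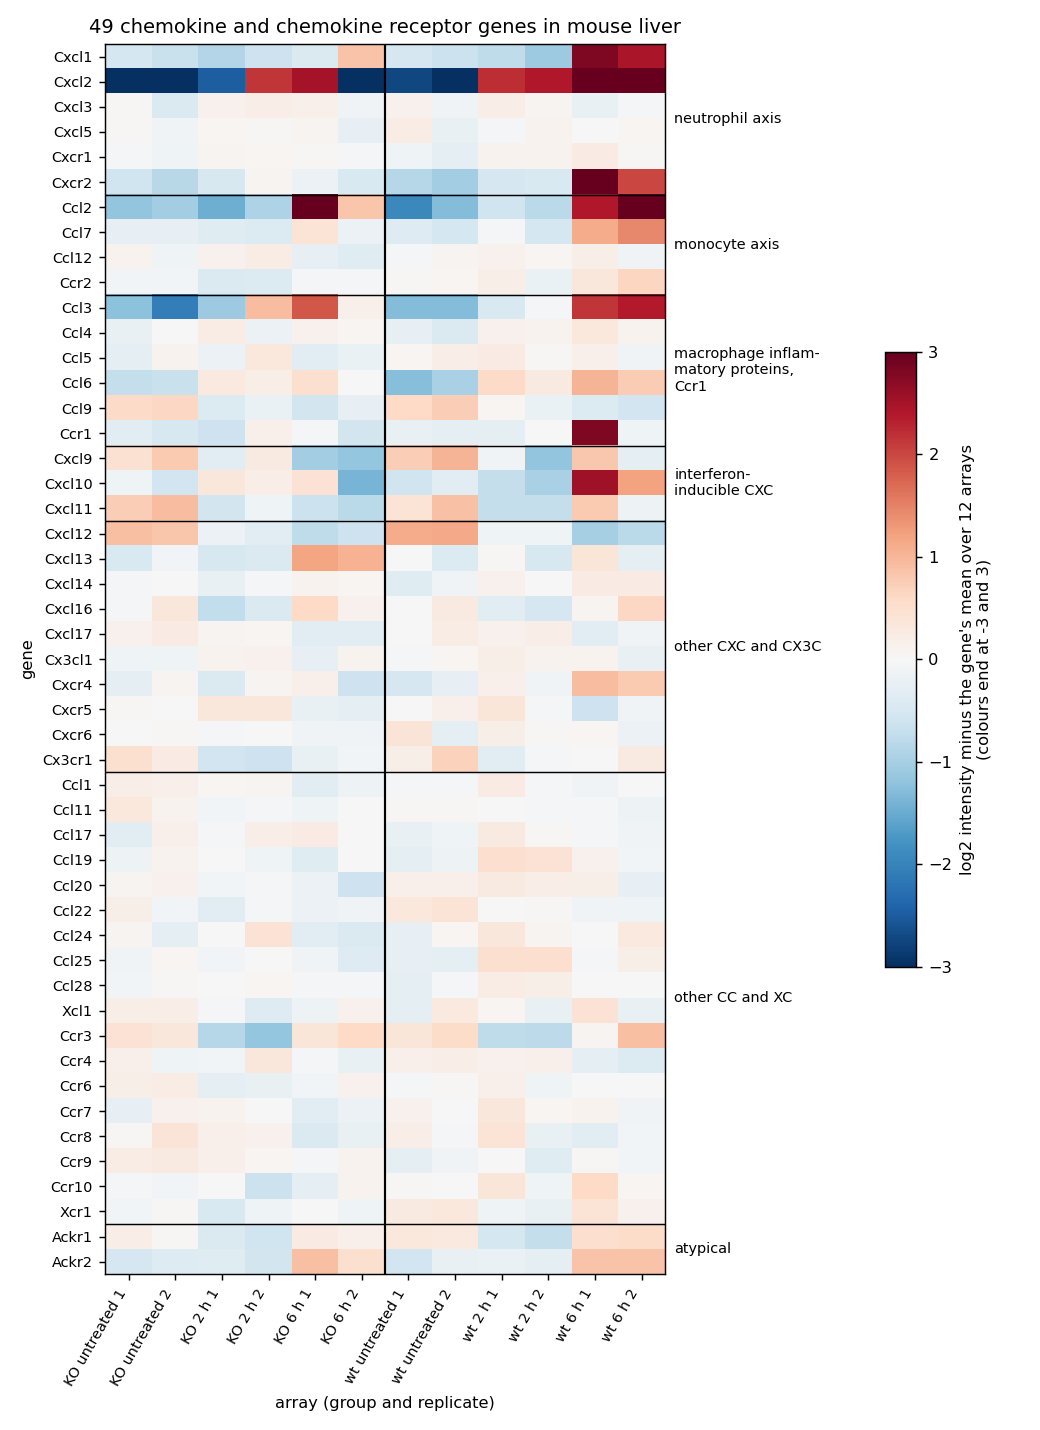
Log2 intensity of each of the 49 members on each of the 12 arrays, as the difference from that gene's own mean, ordered by role, with KO arrays on the left and wt arrays on the right. Cxcl1, Cxcl2, Cxcr2, Ccl2 and Ccl3 were above their own mean on both wt arrays at 6 h, and the 2 KO arrays at 6 h differ from each other for Cxcl1, Cxcl2 and Ccl2.

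Cxcl1 and Cxcl2 are the main neutrophil attractants of mouse liver and act through Cxcr2. Both rose at 6 h in wt liver together with Cxcr2, and neither ligand nor the receptor was called in KO liver at 6 h. Cxcl1 in KO liver had a log2 intensity of 7.33 and 7.19 untreated, then 6.97 and 7.23 at 2 h, then 7.43 and 8.72 at 6 h. Cxcl1 in wt liver had 7.34 and 7.20 untreated, then 7.09 and 6.75 at 2 h, then 10.65 and 10.31 at 6 h. Arrays of both genotypes overlapped before treatment and were apart at 6 h, where both KO arrays lay below both wt arrays. Against untreated liver, Cxcl1 at 6 h was 9.26-fold higher in wt liver (log2 difference 3.21 ± 0.32, SE, adjusted p = 5.86e-05), and in KO liver its log2 difference was 0.81 ± 0.32 (adjusted p = 0.076). The KO value was 1.46 without KO 6 h replicate 1 (adjusted p = 0.00111), and 0.17 when replicate 2 was left out (0.564). At 6 h it was 5.31-fold lower in KO than in wt liver (log2 difference -2.41 ± 0.32, adjusted p = 0.0041), kept without each of the 12 arrays (-3.05 to -1.76) and lost with the compared groups only (0.0536). The difference between the 2 responses was -2.40 ± 0.46, with an adjusted p of 0.0566. From 2 h to 6 h Cxcl1 was called higher in KO liver too (0.97 ± 0.32, adjusted p = 0.0427), but that call was lost without any array other than KO 6 h replicate 1. Without KO 6 h replicate 2 that difference was 0.33, and without replicate 1 it was 1.61. It was also lost with quantile normalization (adjusted p = 0.0687), with the compared groups only (0.137) and with the replicate number as a block (0.0545).

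Cxcl2 was low before treatment, under the level of 5 on all 4 untreated arrays, and reached the mean needed for membership through treated arrays. In KO liver, its log2 intensity was 2.75 and 3.01 untreated, then 4.01 and 8.63 at 2 h, then 8.97 and 3.24 at 6 h. Cxcl2 in wt liver had 3.76 and 3.23 untreated, then 8.69 and 8.88 at 2 h, then 11.61 and 11.01 at 6 h. One KO array at each time was near the wt arrays at 2 h and the other was closer to the untreated level. The gap between the 2 KO arrays was 4.62 at 2 h and 5.73 at 6 h on the log2 scale, and the array high for Cxcl2 at 6 h was also the higher of the pair for Ccl2, Ccl3 and Cxcl10, while Cxcl1 was higher on the other array. Cxcl2 is 1 of the 14 members called higher at 6 h in wt liver, with a log2 difference of 7.82 ± 1.63 (adjusted p = 0.00371). Because the filter admitted it through the arrays where it is high, this call and its size are a description, and no fold is given against untreated values this low. At 2 h in wt liver the difference was 5.29 ± 1.63 with an adjusted p of 0.06. This SE rests on the spread of all 6 groups, wt and KO together. The SD of Cxcl2 within a group was 3.27 and 4.05 in KO liver at 2 h and 6 h. In wt liver it was 0.38 untreated, 0.13 at 2 h and 0.42 at 6 h. In KO liver Cxcl2 differed from untreated by 3.44 at 2 h (adjusted p = 0.134), with 5.75 without KO 2 h replicate 1 (0.0362), and 1.13 when replicate 2 was left out (0.653). At 6 h in KO liver the difference was 3.23 (adjusted p = 0.153), with 0.36 without KO 6 h replicate 1 (0.878), and 6.09 when replicate 2 was left out (0.00791). The difference of KO from wt liver at 6 h was -5.21 (95% interval -8.82 to -1.58 for this gene alone, adjusted p = 0.0708). Without KO 6 h replicate 1 the genotype difference was -8.07 (adjusted p = 0.00855), and without replicate 2 it was -2.34 (adjusted p = 0.379). A log2 value near 3 is at the low end of the array's scale, where a small change of intensity gives a large log2 difference.

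Cxcr2, the receptor that neutrophils carry for these ligands, was the one member whose difference between the responses was called. The response difference of Cxcl2 at 6 h was larger, at -4.59, and was not called. Cxcr2 in KO liver had a log2 intensity of 6.05 and 5.82 untreated, then 6.17 and 6.72 at 2 h, then 6.47 and 6.20 at 6 h. Cxcr2 in wt liver had 5.78 and 5.62 untreated, then 6.15 and 6.18 at 2 h, then 9.98 and 8.65 at 6 h. Both wt arrays at 6 h were above all 10 others. It rose 12.2-fold at 6 h in wt liver (log2 difference 3.61 ± 0.34, adjusted p = 4.24e-05), and KO liver gave 0.40 (adjusted p = 0.396). At 6 h Cxcr2 was 7.89-fold lower in KO than in wt liver (-2.98 ± 0.34, adjusted p = 0.00163), a call that was kept without each of the 12 arrays and with the compared groups only. Subtracting the wt response from that of KO liver at 6 h gave -3.22 ± 0.48 (adjusted p = 0.0226). That call was lost without untreated KO replicate 1 (-3.10, adjusted p = 0.0843) or 2 (-3.33, 0.0672), KO 6 h replicate 2 (-3.08, 0.073) and untreated wt replicate 1 (-3.30, 0.088) or 2 (-3.13, 0.0768). It was also lost when only the compared groups were fitted (adjusted p = 0.0542).

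Neutrophil markers moved with Cxcr2. Of 11 measured markers, Cxcr2 left out, 8 rose in wt liver at 6 h, beside 16.5% of all tested genes. In KO liver at 6 h 0 were called, beside 34.9% of all genes. At 6 h 7 of these markers were lower in KO than in wt liver, beside 4.93% of all genes. Their summed intensity was 650 to 788 in KO liver at 6 h and 2038 to 3723 in wt liver at 6 h, beside 589 to 628 in untreated KO liver and 629 to 652 in untreated wt liver. S100a8 and S100a9, which encode the subunits of calprotectin, were 5.29-fold and 6.10-fold lower in KO than in wt liver at 6 h (adjusted p = 0.000777 for both). The part of these cells in the values of Cxcr2 and of the ligands was not tested.

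The other members of this axis moved little. Cxcr1, the close relative of Cxcr2, rose 1.26-fold in wt liver at 6 h (0.33 ± 0.11, adjusted p = 0.0329), from arrays at 6.14 and 5.91 at 6 h against 5.76 and 5.62 untreated. Leaving out untreated wt replicate 2 (0.26) or wt 6 h replicate 1 (0.22) ended this call, as did fitting the compared groups only (adjusted p = 0.0968). Cxcl3 and Cxcl5, further ligands of Cxcr2, were called in no comparison, and their 12 arrays spanned 5.54 to 6.17 and 5.47 to 5.94.

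**Figure D3:**
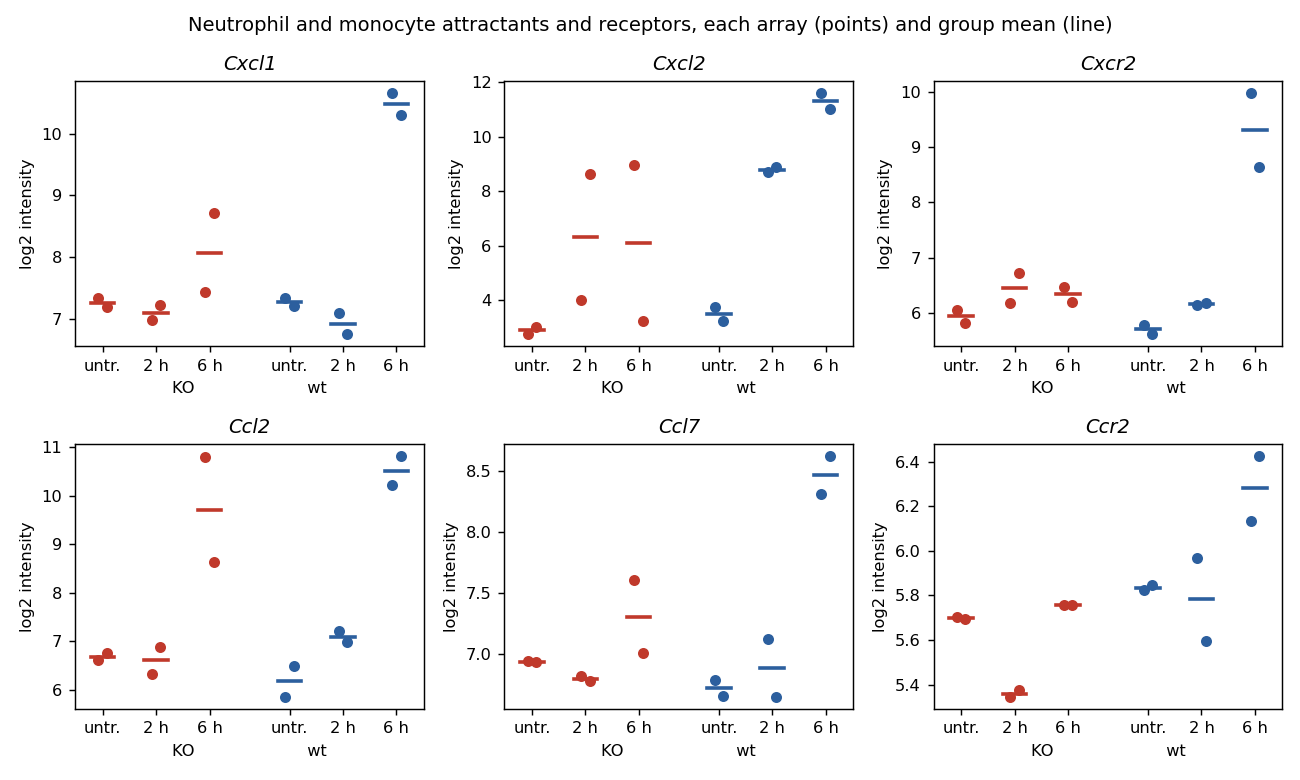
Log2 intensity of Cxcl1, Cxcl2, Cxcr2, Ccl2, Ccl7 and Ccr2 on each array (points) with the group mean (line), KO left in red and wt right in blue, each untreated and at 2 h and 6 h. Both wt points at 6 h lie above both KO points for Cxcl1, Cxcl2, Cxcr2, Ccl7 and Ccr2, while for Ccl2 the higher KO point at 10.79 lies within the wt pair.

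Cxcl1, Cxcl2 and Cxcl3 lie in 1 cluster on chromosome 5, and their promoters are shown here because 2 of the 3 genes rose and the third was called nowhere. Below are the 150 bases before each start on the plus strand of GRCm38.p6, credited to RefSeq. Capitals mark the core letters of an NF-kB site (GGG, any 2 bases, then TTTCC), searched on both strands.
Cxcl1: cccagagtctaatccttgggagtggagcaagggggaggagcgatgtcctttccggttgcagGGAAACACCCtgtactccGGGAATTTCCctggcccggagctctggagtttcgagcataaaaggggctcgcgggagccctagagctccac
Cxcl2: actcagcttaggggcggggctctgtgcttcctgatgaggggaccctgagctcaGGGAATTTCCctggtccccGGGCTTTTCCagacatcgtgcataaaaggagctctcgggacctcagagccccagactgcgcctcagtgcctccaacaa
Cxcl3: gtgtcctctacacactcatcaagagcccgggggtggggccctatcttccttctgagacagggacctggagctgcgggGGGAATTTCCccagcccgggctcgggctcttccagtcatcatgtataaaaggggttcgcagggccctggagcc
These stretches are chr5:90891095-90891244 for Cxcl1, chr5:90903749-90903898 for Cxcl2 and chr5:90785951-90786100 for Cxcl3. Matches begin 89 and 71 bases before the start of Cxcl1, 97 and 78 bases before that of Cxcl2 and 73 bases before that of Cxcl3. The first match of Cxcl1 is on the minus strand and the others on the plus strand. In windows from 250 bases before to 50 after the start, the motif occurred in 1.63% of 32851 promoters and in 6 of the 36 members with a window, the others being Ccl9, Ccl20 and Ccr3. Ccl9 was called lower in all 4 treated groups, Ccl20 was called lower in KO liver at 6 h, and Ccr3 was called lower at 2 h. A second motif, TGANTCA, the letters bound by AP-1, occurred in 7.81% of all windows and in 6 members, Ccl9, Ccl28, Ccr3, Ccr4, Cxcl9 and Cxcl10. These matches are letters in a window, and no binding was measured.

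Ccl2 and Ccl7 attract monocytes through Ccr2. Ccl2 rose in both genotypes at 6 h, while Ccl7 and Ccr2 were called in wt liver and not in KO liver at that time. Ccl2 in KO liver had a log2 intensity of 6.61 and 6.76 untreated, then 6.33 and 6.88 at 2 h, then 10.79 and 8.63 at 6 h. Ccl2 in wt liver had 5.86 and 6.50 untreated, then 7.21 and 6.99 at 2 h, then 10.21 and 10.82 at 6 h. The genotypes overlapped at 6 h, since KO replicate 1 was as high as the wt arrays. At 6 h Ccl2 was 8.14-fold higher than untreated in KO liver (3.02 ± 0.54, adjusted p = 0.00175) and 20.2-fold higher in wt liver (4.34 ± 0.54, adjusted p = 0.000177). Without KO 6 h replicate 1 the KO rise was 1.95 and still called. KO against wt at 6 h gave -0.80 (95% interval -1.99 to 0.39 for this gene alone, adjusted p = 0.358). That difference was -1.88 without KO 6 h replicate 1 (adjusted p = 0.00944), and it turned to 0.27 when replicate 2 was left out (0.692).

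Ccl7 in KO liver had a log2 intensity of 6.95 and 6.94 untreated, then 6.82 and 6.79 at 2 h, then 7.61 and 7.01 at 6 h. Ccl7 in wt liver had 6.79 and 6.66 untreated, then 7.13 and 6.65 at 2 h, then 8.31 and 8.62 at 6 h. Both wt arrays at 6 h were above every KO array. Ccl7 rose 3.34-fold in wt liver at 6 h (1.74 ± 0.20, adjusted p = 0.000128), with 0.37 in KO liver (adjusted p = 0.188), and at 6 h it was 2.23-fold lower in KO than in wt liver (-1.16 ± 0.20, adjusted p = 0.0107). Without KO 6 h replicate 2 the KO difference from untreated was 0.67 and was called (adjusted p = 0.0296), and without KO 6 h replicate 1 it was 0.07 (0.843). The genotype call was lost without KO 6 h replicate 2 (-0.86, adjusted p = 0.072) and with the compared groups only (0.0732). The difference between the responses was -1.37 ± 0.29 (adjusted p = 0.0753).

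Ccr2 itself changed by less. Ccr2 in KO liver had a log2 intensity of 5.70 on both untreated arrays, 5.35 and 5.37 at 2 h, and 5.76 on both arrays at 6 h. Ccr2 in wt liver had 5.82 and 5.85 untreated, then 5.97 and 5.59 at 2 h, then 6.13 and 6.43 at 6 h. KO arrays at 6 h lay below both wt arrays at 6 h, by 1.44-fold on average (-0.52 ± 0.14, adjusted p = 0.04). That call was lost without either KO or wt array at 6 h or either untreated array of either genotype (-0.67 to -0.38 over the 12 omissions, adjusted p up to 0.157), with quantile normalization (0.0588) and with the compared groups only (0.129). The rise in wt liver at 6 h (0.45 ± 0.14, adjusted p = 0.024) was lost when wt 6 h replicate 2 or an untreated wt array was left out (0.30 to 0.59 over the 12 omissions, adjusted p up to 0.165). Of 5 measured monocyte markers, Plac8 and Itgam rose and Fn1 fell in wt liver at 6 h, where 38.4% of all genes were called. In KO liver at 6 h, where 34.9% of all genes were called, 0 of these markers were. Between genotypes at 6 h they went both ways, with Lyz2 higher (0.75 ± 0.15, adjusted p = 0.0175) and Itgam lower in KO liver (-0.65 ± 0.14, adjusted p = 0.0196) and a median difference of -0.52. Their summed intensity was 6427 and 6429 in KO liver at 6 h against 5309 and 5311 in wt liver at 6 h. The median log2 over the markers was 6.78 to 7.03 in KO liver at 6 h against 7.45 to 7.66 in wt liver. A sum follows its brightest markers, and here it went the other way from the median. The median range of 7.45 to 7.66 in wt liver at 6 h was also that of the neutrophil markers. That list shares only Itgam with this one. Neither the sum nor the median is a measure of monocyte number. Ccl12, another Ccr2 ligand in the mouse, was called only from 2 h to 6 h in KO liver, where it fell (-0.49 ± 0.13, adjusted p = 0.0147), a call lost without KO 2 h replicate 2 (-0.45) or KO 6 h replicate 2 (-0.43).

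The macrophage inflammatory proteins and their relatives attract monocytes and other leukocytes, several of them through Ccr1. Ccl3, an attractant of monocytes and neutrophils, rose at 6 h in both genotypes. Ccl3 in KO liver had a log2 intensity of 5.67 and 4.83 untreated, then 5.81 and 7.84 at 2 h, then 8.76 and 7.04 at 6 h. Ccl3 in wt liver had 5.61 and 5.60 untreated, then 6.46 and 6.87 at 2 h, then 9.05 and 9.29 at 6 h. KO arrays at 6 h lay below both wt arrays, with a wider spread. The rise was 6.27-fold in KO liver (2.65 ± 0.63, adjusted p = 0.00838) and 11.8-fold in wt liver (3.57 ± 0.63, adjusted p = 0.0014). Leaving out KO 6 h replicate 1 (1.79, adjusted p = 0.0759) or untreated KO replicate 2 (2.23, 0.0665) ended the KO call. KO against wt at 6 h gave -1.27 (95% interval -2.66 to 0.12 for this gene alone, adjusted p = 0.214), with -2.13 without KO 6 h replicate 1 (0.0678), and -0.41 when replicate 2 was left out (0.772).

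Ccl6, a macrophage-derived Ccr1 ligand of rodents, was the one member called higher in all 4 treated groups. Ccl6 in KO liver had a log2 intensity of 7.78 and 7.83 untreated, then 8.79 and 8.69 at 2 h, then 8.97 and 8.51 at 6 h. Ccl6 in wt liver had 7.22 and 7.51 untreated, then 9.08 and 8.77 at 2 h, then 9.52 and 9.25 at 6 h. Every treated array was above every untreated one. The rise in KO liver was 1.91-fold at both times (adjusted p = 0.00334 and 0.00232), and in wt liver it was 2.94-fold at 2 h (adjusted p = 0.000464) and 4.05-fold at 6 h (adjusted p = 2.6e-05). At 6 h Ccl6 was 1.57-fold lower in KO than in wt liver (-0.65 ± 0.17, adjusted p = 0.046), a call that was kept without KO 6 h replicate 1 and lost without any of the other 11 arrays (-0.88 to -0.42 over the omissions, adjusted p up to 0.267). It was also lost without the filter on the mean (adjusted p = 0.0517) and with the compared groups only (0.142).

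Ccl9, which lies beside Ccl6 on chromosome 11 and also acts on Ccr1, went the other way. Ccl9 in KO liver had a log2 intensity of 10.63 and 10.67 untreated, then 9.65 and 9.85 at 2 h, then 9.51 and 9.82 at 6 h. Ccl9 in wt liver had 10.65 and 10.79 untreated, then 10.12 and 9.87 at 2 h, then 9.66 and 9.49 at 6 h. Every treated array was below every untreated one, and the genotypes overlapped at each time. Ccl9 fell 1.87-fold at 2 h and 1.98-fold at 6 h in KO liver (adjusted p = 0.00135 and 0.000449), and 1.66-fold at 2 h and 2.21-fold at 6 h in wt liver (adjusted p = 0.00769 and 0.000158). Leaving out wt 2 h replicate 2 (-0.61, adjusted p = 0.0709) or untreated wt replicate 2 (-0.66, 0.0691) ended the 2 h call in wt liver. Some Kupffer cell and macrophage markers fell as Ccl9 did, others were not called, and a few rose at 6 h. Of 12 measured, 4 fell at 2 h in each genotype, beside 20.8% of all genes in KO liver and 6.17% in wt liver. At 6 h 5 fell and 2 rose in KO liver, beside 19.1% and 15.8% of all genes. In wt liver at 6 h 7 markers fell and 1 rose, beside 22% and 16.5% of all genes. Their summed intensity was 5773 to 6303 in KO liver at 6 h and 5013 to 5639 in wt liver at 6 h, beside 6822 to 7858 in untreated KO liver and 6831 to 7127 in untreated wt liver. Their part in the fall of Ccl9 was not tested.

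Ccl4, a macrophage inflammatory protein, rose 1.46-fold in wt liver at 6 h (0.55 ± 0.15, adjusted p = 0.0141), with arrays at 6.18 and 5.96 at 6 h against 5.61 and 5.43 untreated. The call ended when wt 6 h replicate 1 (0.44) or untreated wt replicate 2 (0.46) was left out. Ccr1 was called nowhere, and its 2 wt arrays at 6 h were 2.92 apart on the log2 scale, at 8.24 and 5.32, while the other 10 arrays lay between 4.83 and 5.60. Ccl5, a Ccr1 ligand that T cells make, was called nowhere either, over a range of 6.61 to 7.27.

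Cxcl9, Cxcl10 and Cxcl11 are the interferon-inducible ligands of Cxcr3 and lie side by side on chromosome 5. The 3 genes did not move as one. Cxcl10 was high on both wt arrays at 6 h and rose 5.03-fold there (2.33 ± 0.52, adjusted p = 0.00551). Cxcl10 in KO liver had a log2 intensity of 6.90 and 6.46 untreated, then 7.37 and 7.24 at 2 h, then 7.47 and 5.64 at 6 h. Cxcl10 in wt liver had 6.43 and 6.72 untreated, then 6.31 and 6.06 at 2 h, then 9.58 and 8.23 at 6 h. The KO pair at 6 h lay on both sides of the untreated level, and its difference was -0.13 (adjusted p = 0.872), with -1.04 without KO 6 h replicate 1 (0.116), and 0.78 when replicate 2 was left out (0.204). KO liver was 5.10-fold lower than wt liver at 6 h (-2.35 ± 0.52, adjusted p = 0.025), a call lost without KO 6 h replicate 2 (-1.44, adjusted p = 0.131) or wt 6 h replicate 1 (-1.68, 0.189) and with the compared groups only (0.13). The rise in wt liver was lost without wt 6 h replicate 1 (1.66, adjusted p = 0.0518).

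Cxcl11 fell in both genotypes at 2 h, and at 6 h the KO arrays were still low. Cxcl11 in KO liver had a log2 intensity of 7.15 and 7.32 untreated, then 5.85 and 6.29 at 2 h, then 5.75 and 5.60 at 6 h. Cxcl11 in wt liver had 6.81 and 7.27 untreated, then 5.69 and 5.68 at 2 h, then 7.18 and 6.26 at 6 h. Of the wt arrays at 6 h, 1 lay in the untreated range and 1 below it. Both were above both KO arrays at 6 h. Cxcl11 fell 2.25-fold at 2 h and 2.95-fold at 6 h in KO liver (adjusted p = 0.00844 and 0.00139) and 2.56-fold at 2 h in wt liver (adjusted p = 0.00887). At 6 h it was 2.06-fold lower in KO than in wt liver (-1.04 ± 0.27, adjusted p = 0.038). The genotype call ended when wt 6 h replicate 1, a KO array at 6 h, an untreated KO array or a wt array at 2 h was left out (-1.51 to -0.58 over the 12 omissions, adjusted p up to 0.237), with quantile normalization (0.0531) and with the compared groups only (0.13). The 2 h call in KO liver ended when KO 2 h replicate 1 (-0.95) or untreated KO replicate 2 (-1.09) was left out. In wt liver the 2 h call ended when a wt array at 2 h (-1.36 and -1.35) or untreated wt replicate 2 (-1.12) was left out.

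Cxcl9 in KO liver had a log2 intensity of 8.82 and 9.14 untreated, then 8.05 and 8.64 at 2 h, then 7.33 and 7.21 at 6 h. Cxcl9 in wt liver had 9.11 and 9.37 untreated, then 8.26 and 7.17 at 2 h, then 9.18 and 8.09 at 6 h. It fell 3.27-fold at 6 h in KO liver (-1.71 ± 0.39, adjusted p = 0.0064) and 2.87-fold at 2 h in wt liver (-1.52 ± 0.39, adjusted p = 0.0276). Leaving out wt 2 h replicate 2 (-0.98) or an untreated wt array (-1.66 and -1.39) ended the wt call. KO against wt at 6 h gave -1.36 ± 0.39 (adjusted p = 0.0529), with both KO arrays below both wt arrays.

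**Figure D4:**
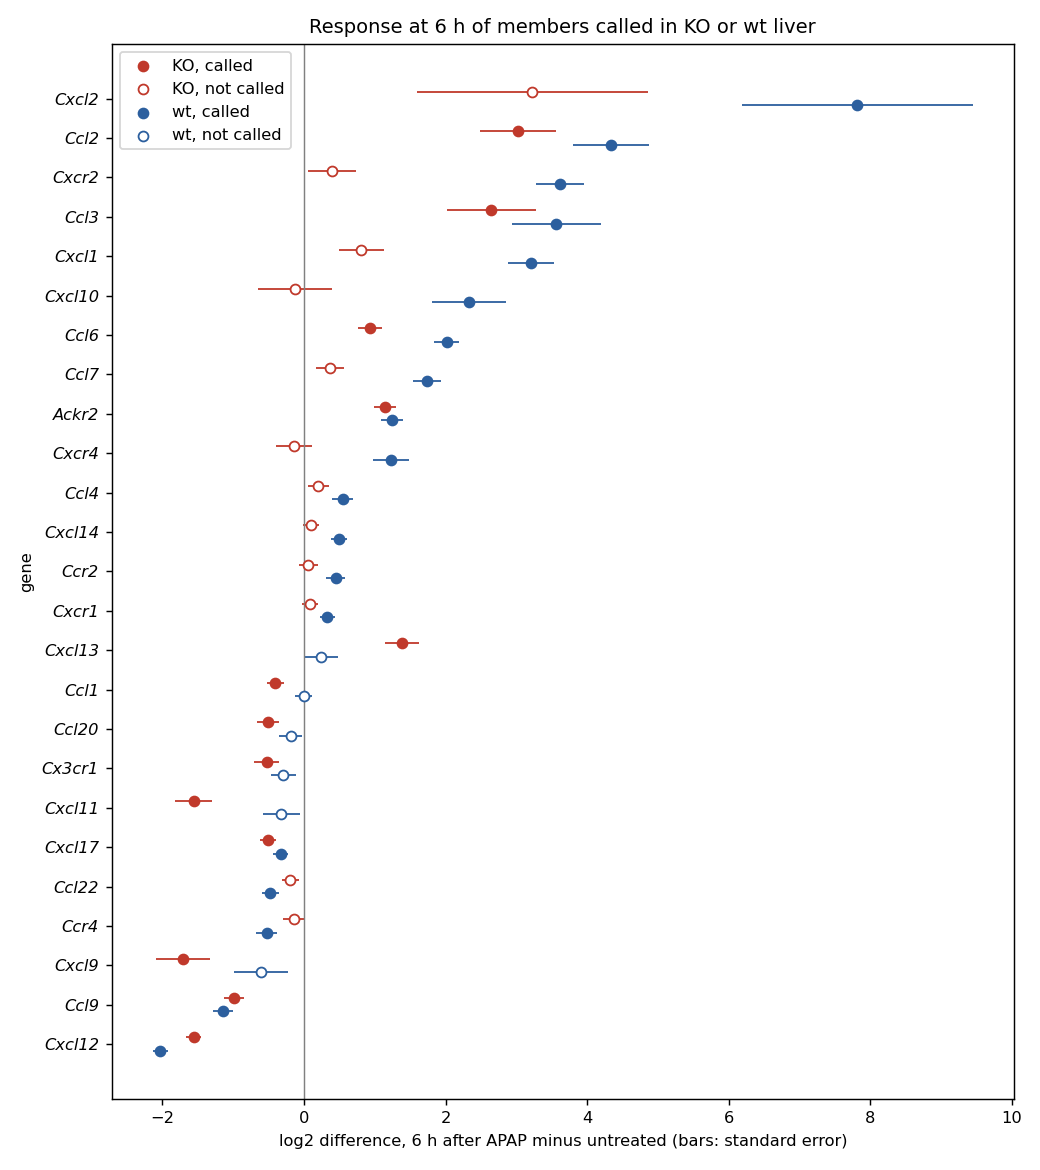
Log2 difference of 6 h after APAP minus untreated, with its standard error, for the members called in KO or wt liver at 6 h, KO in red above wt in blue, filled where called. Ccl2, Ccl3, Ccl6 and Ackr2 were called higher in both genotypes, Ccl9, Cxcl12 and Cxcl17 lower in both, and Cxcl13 was higher in KO liver (1.39) with 0.24 in wt liver.

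Cxcl12, which retains leukocytes and progenitors through Cxcr4, fell in all 4 treated groups. Cxcl12 in KO liver had a log2 intensity of 10.76 and 10.67 untreated, then 9.67 and 9.53 at 2 h, then 9.09 and 9.23 at 6 h. Cxcl12 in wt liver had 10.96 and 10.99 untreated, then 9.72 and 9.71 at 2 h, then 8.85 and 9.05 at 6 h. The 3 times did not overlap in either genotype. The fall was 2.17-fold at 2 h and 2.94-fold at 6 h in KO liver (adjusted p = 0.000157 and 1.02e-05), and 2.40-fold at 2 h and 4.08-fold at 6 h in wt liver (adjusted p = 0.000109 and 2.51e-06). These 4 calls were kept without each of the 12 arrays, and the difference between the responses at 6 h was 0.47 ± 0.15 (adjusted p = 0.177). Of 9 sinusoidal endothelial markers, 3 fell in KO liver at 2 h, beside 20.8% of all genes. In wt liver at 2 h 0 were called and their median difference was 0.039, while Cxcl12 fell. At 6 h 5 fell in KO liver, while 5 fell and 3 rose in wt liver. The shares of all genes that fell at 6 h were 19.1% in KO liver and 22% in wt liver. Of 8 stellate cell and fibroblast markers, 3 fell and 1 rose in KO liver at 2 h and 2 fell in wt liver at 2 h. At 6 h, 0 of them were called in KO liver, and 3 fell and 1 rose in wt liver. The part of either cell type in the fall of Cxcl12 was not tested. Cxcr4, its receptor, rose 2.34-fold in wt liver at 6 h (1.23 ± 0.25, adjusted p = 0.00327).

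Cxcr4 in KO liver had a log2 intensity of 5.43 and 5.82 untreated, then 5.29 and 5.80 at 2 h, then 5.87 and 5.11 at 6 h. Cxcr4 in wt liver had 5.22 and 5.48 untreated, then 5.88 and 5.63 at 2 h, then 6.65 and 6.50 at 6 h. Both wt arrays at 6 h were above all others, and KO liver at 6 h was 2.12-fold lower than wt liver (-1.09 ± 0.25, adjusted p = 0.0278). That call was lost without KO 6 h replicate 2 (-0.70, adjusted p = 0.165), wt 6 h replicate 1 (-1.01, 0.175) or wt 6 h replicate 2 (-1.16, 0.0548), and with the compared groups only (0.0989).

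Cxcl13, the B cell attractant that acts on Cxcr5, was the one member called higher in KO than in wt liver. Cxcl13 in KO liver had a log2 intensity of 8.19 and 8.57 untreated, then 8.16 and 8.22 at 2 h, then 9.83 and 9.70 at 6 h. Cxcl13 in wt liver had 8.64 and 8.25 untreated, then 8.68 and 8.16 at 2 h, then 9.01 and 8.38 at 6 h. Both KO arrays at 6 h were above the 10 others. The rise at 6 h in KO liver was 2.61-fold (1.39 ± 0.23, adjusted p = 0.00132), with 0.24 in wt liver (adjusted p = 0.445), and KO against wt at 6 h gave 1.07 ± 0.23 (adjusted p = 0.0235). The genotype call was lost without KO 6 h replicate 1 (1.01, adjusted p = 0.0634), KO 6 h replicate 2 (1.14, 0.099) or wt 6 h replicate 2 (0.76, 0.0821), and with the compared groups only (0.0778). The difference between the responses was 1.14 ± 0.33 with an adjusted p of 0.15. Cxcr5 was not called against untreated liver in either genotype.

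Cx3cr1, the fractalkine receptor of monocytes and macrophages, fell at 2 h. Cx3cr1 in KO liver had a log2 intensity of 6.14 and 5.91 untreated, then 5.09 and 5.04 at 2 h, then 5.43 and 5.57 at 6 h. Cx3cr1 in wt liver had 5.83 and 6.34 untreated, then 5.32 and 5.62 at 2 h, then 5.65 and 5.94 at 6 h. The fall at 2 h in KO liver was 1.95-fold (adjusted p = 0.00315). In wt liver it was 1.53-fold (adjusted p = 0.047), lost without each of 9 arrays, with -0.36 without untreated wt replicate 2, and lost without the filter on the mean (0.0539), with 16 added to each value (0.0503) and with the compared groups only (0.0797). At 6 h in KO liver the fall of 0.52 (adjusted p = 0.0421) was lost without any array of untreated, 2 h or 6 h KO liver (-0.64 to -0.41 over the 12 omissions) and with quantile normalization (0.109). Its ligand Cx3cl1 was called nowhere, over a range of 6.59 to 7.01.

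Cxcl16, the transmembrane ligand of Cxcr6, fell 1.67-fold in KO liver at 2 h (-0.74 ± 0.22, adjusted p = 0.0298), with arrays at 6.79 and 7.10 at 2 h against 7.48 and 7.88 untreated. The call ended when KO 2 h replicate 1 (-0.58) or untreated KO replicate 2 (-0.54) was left out, and with quantile normalization (adjusted p = 0.06). Its arrays at 6 h, 8.13 and 7.66 in KO liver and 7.61 and 8.15 in wt liver, were back in or above the untreated range. In wt liver Cxcl16 also had a lower mean at 2 h, 7.12 against 7.67 untreated, without overlap and not called. KO against wt at 2 h gave -0.18 (adjusted p = 0.667). From 2 h to 6 h Cxcl16 was called higher in KO liver (0.95, adjusted p = 0.00967) and in wt liver (0.76, adjusted p = 0.0302). Both of these calls were lost without some of the arrays (0.71 to 1.18 and 0.49 to 1.03). Cxcl17, a mucosal chemokine, fell 1.43-fold in KO liver at 6 h (-0.51 ± 0.11, adjusted p = 0.00526), with arrays at 5.90 and 5.86 at 6 h against 6.34 and 6.44 untreated. Its fall in wt liver at 6 h (-0.33 ± 0.11, adjusted p = 0.0385) was lost without either untreated KO array, untreated wt replicate 2, either wt array at 2 h or wt 6 h replicate 1 (-0.22 without that last array), with quantile normalization (0.0665) and with the compared groups only (0.11). Cxcl14, a tissue-resident CXC ligand, rose 1.40-fold in wt liver at 6 h (adjusted p = 0.00657), a call lost without untreated wt replicate 1 (0.36).

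Among the remaining CC and XC genes, Ccr3 showed the clearest time course. Ccr3 is the eosinophil receptor for Ccl11 and Ccl24. Ccr3 in KO liver had a log2 intensity of 7.53 and 7.44 untreated, then 6.25 and 5.94 at 2 h, then 7.46 and 7.70 at 6 h. Ccr3 in wt liver had 7.47 and 7.66 untreated, then 6.34 and 6.32 at 2 h, then 7.20 and 8.01 at 6 h. All 4 arrays at 2 h were below the 8 others, and at 6 h the values lay around the untreated ones. Ccr3 fell 2.62-fold at 2 h in KO liver (-1.39 ± 0.22, adjusted p = 0.00153) and 2.35-fold in wt liver (-1.23 ± 0.22, adjusted p = 0.00552), and from 2 h to 6 h it rose 2.80-fold and 2.41-fold (adjusted p = 0.000911 in KO liver and 0.00274 in wt liver). The wt call at 2 h was lost without untreated wt replicate 2 (-1.14, adjusted p = 0.052). Its ligand Ccl24 was called only from 2 h to 6 h in KO liver, where it fell by 0.58 on the log2 scale (adjusted p = 0.0386), a call lost without KO 2 h replicate 2 (-0.36) or either KO array at 6 h (-0.64 and -0.52) and with the compared groups only (0.0722), and Ccl11 was called nowhere.

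Ccl25 and Ccl19 were called higher at 2 h in wt liver and not in KO liver, and their difference between genotypes was not called. Ccl25 guides Ccr9-bearing lymphocytes. Ccl25 in KO liver had a log2 intensity of 7.08 and 7.24 untreated, then 7.10 and 7.17 at 2 h, then 7.08 and 6.80 at 6 h. Ccl25 in wt liver had 6.94 and 6.91 untreated, then 7.66 and 7.68 at 2 h, then 7.12 and 7.37 at 6 h. Both wt arrays at 2 h were above all 10 others, and the rise was 1.68-fold (0.75 ± 0.12, adjusted p = 0.00367). KO against wt at 2 h gave -0.54 ± 0.12 (adjusted p = 0.056), and the difference between the responses was -0.77 ± 0.18 (adjusted p = 0.164). Ccl19, a Ccr7 ligand that guides T cells and dendritic cells, had 6.40 and 6.33 at 2 h against 5.64 and 5.74 untreated in wt liver, a 1.60-fold rise (0.68 ± 0.14, adjusted p = 0.0138). This call ended when any of these 4 arrays was left out (0.63 to 0.72 over the 12 omissions, adjusted p up to 0.0931). Ccl19 has near-identical copies in the mouse genome, so its 5 probe sets cannot be assigned to 1 copy.

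The other calls in this group were small. At 6 h in KO liver, Ccl1 fell 1.32-fold (adjusted p = 0.022) and Ccl20, the Ccr6 ligand, 1.42-fold (adjusted p = 0.0319). Ccl1 lost its call without either untreated KO array or KO 6 h replicate 1 (-0.49 to -0.32 over the 12 omissions). Ccl20 lost it without either untreated KO array or KO 6 h replicate 2 (-0.28), with quantile normalization (0.0705) and with the compared groups only (0.0725). Ccr6 fell 1.37-fold at 2 h in KO liver (adjusted p = 0.0146), lost without either untreated KO array or KO 2 h replicate 1 (-0.48 to -0.42 over the 12 omissions). At 6 h in wt liver, Ccl22 fell 1.39-fold (adjusted p = 0.01) and its receptor Ccr4, carried by T helper cells, fell 1.44-fold (adjusted p = 0.0183). Ccl22 lost its call without untreated wt replicate 2 (-0.43), and Ccr4 when wt 6 h replicate 2 or an untreated wt array was left out (-0.59 to -0.46 over the 12 omissions). Xcr1, the receptor of cross-presenting dendritic cells, was called only from 2 h to 6 h in wt liver (0.44 ± 0.14, adjusted p = 0.0353), a call lost without 5 of the 12 arrays (0.30 to 0.58) and with the compared groups only (0.053). Cxcr5 was called lower from 2 h to 6 h in KO liver (-0.60, adjusted p = 0.0224) and in wt liver (-0.51, adjusted p = 0.0463). Its KO and wt group means were 5.42 and 5.23 at 2 h and 4.83 and 4.71 at 6 h, under the level of 5. Because its high 2 h arrays helped it pass the filter, these 2 calls are a description. The KO call was lost without any KO array at 2 h or 6 h (-0.63 to -0.57 over the 12 omissions), and the wt call without each of 10 arrays (-0.77 to -0.26) and with 5 of the other settings.

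The atypical receptors followed 2 courses that both genotypes shared. Ackr1, which takes up CXC and CC ligands on venules and red cells, fell at 2 h and returned by 6 h. Ackr1 in KO liver had a log2 intensity of 7.27 and 7.11 untreated, then 6.63 and 6.46 at 2 h, then 7.30 and 7.21 at 6 h. Ackr1 in wt liver had 7.37 and 7.35 untreated, then 6.55 and 6.35 at 2 h, then 7.57 and 7.61 at 6 h. It fell 1.56-fold at 2 h in KO liver (adjusted p = 0.00231) and 1.89-fold in wt liver (adjusted p = 0.000734), with all 4 arrays below the 8 others, and the difference from untreated at 6 h was 0.07 in KO liver and 0.23 in wt liver (adjusted p = 0.677 and 0.138). From 2 h to 6 h Ackr1 rose 1.64-fold in KO liver and 2.20-fold in wt liver (adjusted p = 0.00117 and 0.000207). These calls of Ackr1 were kept without each of the 12 arrays.

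Ackr2, the scavenger of inflammatory CC ligands, was not called at 2 h and was higher at 6 h. Ackr2 in KO liver had a log2 intensity of 6.17 and 6.28 untreated, then 6.31 and 6.12 at 2 h, then 7.58 and 7.16 at 6 h. Ackr2 in wt liver had 6.10 and 6.46 untreated, then 6.48 and 6.38 at 2 h, then 7.53 and 7.52 at 6 h. It rose 2.21-fold in KO liver and 2.37-fold in wt liver (adjusted p = 0.000403 and 0.000204), kept without each of the 12 arrays. KO against wt at 6 h gave -0.15 (adjusted p = 0.559), with the genotypes overlapping.

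**Figure D5:**
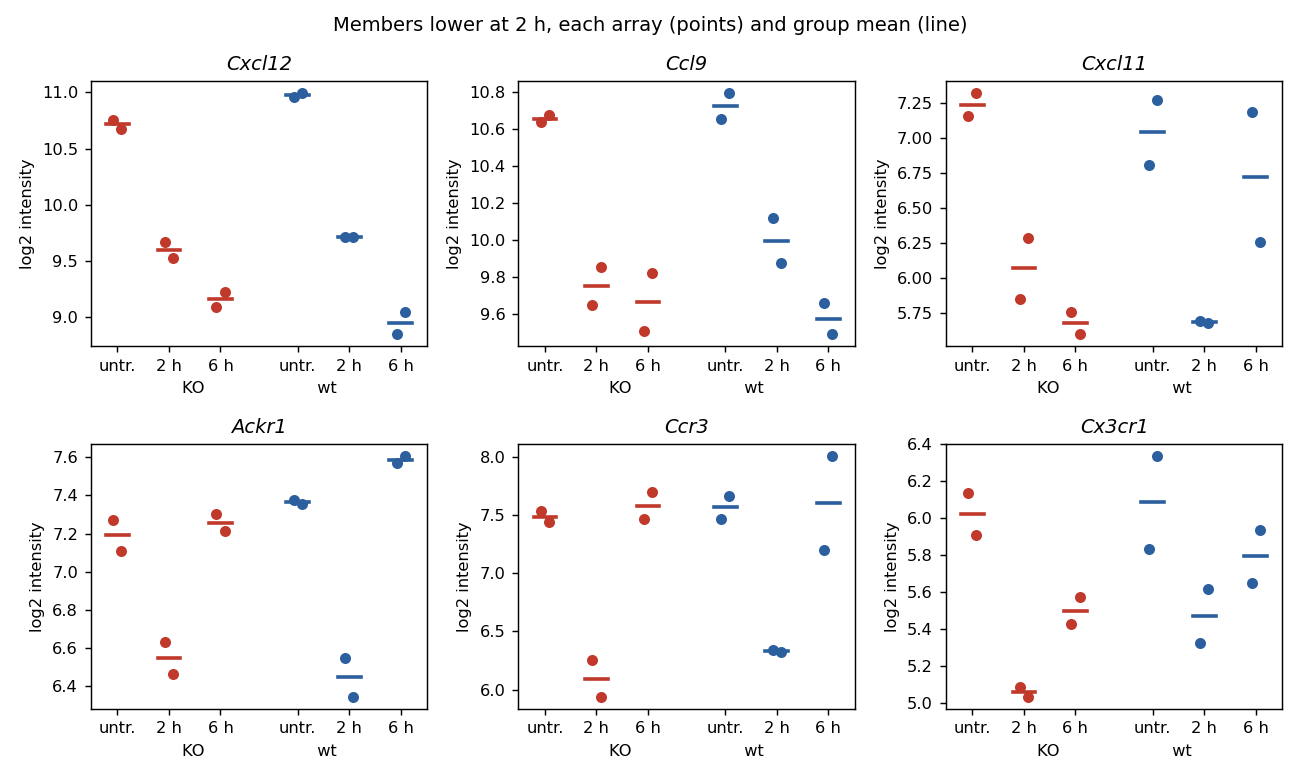
Log2 intensity of Cxcl12, Ccl9, Cxcl11, Ackr1, Ccr3 and Cx3cr1 on each array (points) with the group mean (line), KO left in red and wt right in blue. All 6 were lower at 2 h in both genotypes, Ackr1 and Ccr3 were back near the untreated level at 6 h, and Cxcl12 and Ccl9 were not.

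The 14 members called in none of the 11 comparisons were Ccl5, Ccl11, Ccl17, Ccl28, Xcl1, Cx3cl1, Cxcl3, Cxcl5, Ccr1, Ccr7, Ccr8, Ccr9, Ccr10 and Cxcr6. Several are partners of members described above: Ccr9 of Ccl25, Ccr7 of Ccl19, Ccr8 of Ccl1, Cxcr6 of Cxcl16 and Ccl17 of Ccr4. T, B and NK cell markers, cells that carry many of these receptors, had a summed intensity of 529 to 547 in KO liver at 6 h and of 546 to 574 in wt liver at 6 h, over 9 markers. In KO liver at 6 h 0 of the 9 were called, beside 34.9% of all genes. In wt liver at 6 h Cd3e was called higher and Ncr1 and Gzmb lower, beside 38.4% of all genes. None of the 5 dendritic cell markers was called at 6 h in either genotype. These values do not show that the receptors were unchanged, since most stood near the low end of the measured range.

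At 6 h the members that differed between genotypes were Cxcl1, Cxcr2, Ccl7, Ccr2, Ccl6, Cxcl10, Cxcl11 and Cxcr4, lower in KO liver, and Cxcl13, higher in KO liver. Over all 49 members the median difference was -0.17, beside 0.01 over all tested genes, and 38 members had a value below 0, where 49.0% of all genes did. Of the 9 calls, 8 were lost when only the 2 groups at 6 h were fitted, and Cxcr2 was kept. Without KO 6 h replicate 2, the number of members called was 2, and without KO 6 h replicate 1 it was 9.

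Genes upstream of chemokine production were examined from a list of NF-kB subunits, their inhibitors and the cytokines that induce them, of which 23 were measured. At 6 h, 6 rose and 1 fell in KO liver and 13 rose in wt liver, and 6 were lower in KO than in wt liver. Of all tested genes at 6 h, 15.8% rose and 19.1% fell in KO liver, and 16.5% rose and 22% fell in wt liver. Between genotypes at 6 h, 4.93% of all genes were lower in KO liver. At 2 h, 10.6% of all genes rose and 20.8% fell in KO liver, and 6.53% rose and 6.17% fell in wt liver. Il1b, an inducer of Cxcl1 and Cxcl2, had a log2 intensity of 7.75 and 6.80 in KO liver at 6 h against 9.36 and 9.04 in wt liver at 6 h (log2 difference -1.92 ± 0.28, adjusted p = 0.00572). Tnfaip3, a feedback inhibitor of NF-kB, was 5.70-fold lower and Nfkbiz, a co-activator of it, 4.60-fold lower in KO than in wt liver at 6 h (adjusted p = 0.00461 and 0.00316). Rela, the transactivating subunit, rose at 6 h in KO liver (0.85 ± 0.14) and in wt liver (1.06 ± 0.14). At 2 h, 6 rose and 4 fell in KO liver and 5 rose and 1 fell in wt liver, and Zfp36, which destabilises chemokine and cytokine transcripts, rose 6.69-fold and 6.24-fold (adjusted p = 0.000263 in KO liver and 4e-04 in wt liver). At 6 h Zfp36 was 4.36-fold lower in KO than in wt liver (adjusted p = 0.0041). Calls of single genes in this list and the lists below were not examined without single arrays or under other settings.

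Endothelial adhesion molecules, which arrest the cells that chemokines attract, were measured for 13 of 14 listed genes. At 6 h, 3 rose in KO liver and 9 in wt liver, and 6 were lower in KO than in wt liver. Of all genes, 15.8% rose in KO liver and 16.5% in wt liver at 6 h, and 4.93% were lower in KO than in wt liver. Sele and Selp, the endothelial selectins E and P, rose 2.68-fold and 3.15-fold in wt liver at 6 h (adjusted p = 5.12e-05 and 0.000152), and were 2.09-fold and 1.79-fold lower in KO than in wt liver at 6 h (adjusted p = 0.0035 and 0.0301). Icam1 rose in both genotypes at 6 h, by 0.97 ± 0.18 in KO liver and 1.19 ± 0.18 in wt liver. Some genes of this list, such as Itgam, are leukocyte markers as well.

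Of 15 measured chemoattractant receptors and chemokine-related genes that the symbols above do not cover, 3 rose and 2 fell at 6 h in KO liver. In wt liver at 6 h 7 rose and 2 fell, and 5 were lower in KO than in wt liver at 6 h. The shares of all genes called at 6 h were 34.9% in KO liver and 38.4% in wt liver, and 4.93% were lower in KO liver. Among the 15 are Pf4 and Ppbp, the CXC chemokines of platelets. Pf4 in KO liver had a log2 intensity of 6.00 and 5.80 untreated, then 6.08 and 7.43 at 2 h, then 6.37 and 6.02 at 6 h. Pf4 in wt liver had 5.95 and 6.08 untreated, then 8.19 and 8.28 at 2 h, then 8.32 and 7.93 at 6 h. At 6 h it was 3.81-fold lower in KO than in wt liver (adjusted p = 0.0103). Ppbp was also 3.81-fold lower (adjusted p = 0.0201), with log2 intensities of 7.29 and 6.76 in KO liver against 9.23 and 8.68 in wt liver. C3ar1, the receptor of complement fragment C3a, was 1.70-fold lower in KO than in wt liver at 6 h (adjusted p = 0.0407). Dpp4, the protease that trims several chemokines, fell at 6 h by 1.08 in KO liver and 1.13 in wt liver on the log2 scale.

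Genes that carry the signal from chemokine receptors, such as G protein subunits, arrestins and Rac regulators, were measured for 24 of 27 listed. At 2 h, 2 rose and 10 fell in KO liver, and 3 rose and 2 fell in wt liver. The shares of all genes at 2 h were 10.6% and 20.8% in KO liver and 6.53% and 6.17% in wt liver. Between KO and wt liver at 2 h, 0 of the 24 were called, beside 2.01% of all genes. The difference between the responses at 2 h was also called for 0, beside 0.0293% of all genes. At 6 h, 2 rose and 1 fell in KO liver and 8 rose in wt liver, and 3 were lower in KO than in wt liver. Beside these, 34.9% of all genes were called in KO liver and 38.4% in wt liver at 6 h, and 4.93% were lower in KO liver. Arrb2, the arrestin that desensitises many of these receptors, fell in KO liver at 2 h by 0.54 ± 0.11 on the log2 scale (adjusted p = 0.00455). Rgs16 and Rgs18, which end G protein signalling, rose at 2 h in both genotypes and were 4.42-fold and 4.16-fold lower in KO than in wt liver at 6 h (adjusted p = 0.0196 and 0.0136).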

How the data were processed

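Per the labels, the platform for the liver RNA was the Affymetrix Mouse Gene 1.1 ST array, and per the submitters' processing notes the authors normalized the arrays with RMA in Affymetrix Expression Console, versions not given. The deposited values are linear intensities, of which log2 was taken here without a pseudocount. Of 35556 probe sets, 21218 carried 1 gene symbol, 1881 several and 12457 none, and only the first were used. A gene with several probe sets was represented by the one with the highest mean. Genes with a mean log2 of at least 5 (17052) entered one limma fit (version 3.58.1 under R 4.3.3, with lmFit and eBayes without trend, 6 residual and 4.33 prior degrees of freedom), with Benjamini-Hochberg adjustment over all genes in each of 11 comparisons. The fit was tested on simulated data.

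Titles gave the groups, except that 1 wt sample at 2 h was placed by its source name. Members and gene lists were chosen with earlier results of these data known. Named genes are members called in at least 1 comparison and their ligand or receptor partners, plus up to 4 genes per list. Comparisons between times share the untreated arrays, and all 49 members matched the RefSeq table of GRCm38.p6. Whether replicate numbers pair the samples is not known, and the main fit used no pairing. Alternatives were no filter, a mean of at least 7, quantile normalization, 16 added to each value, a replicate block, a fit of the compared groups only and each array left out. They were examined for the members and for the counts over all genes, and not for single genes of the marker and gene lists. Where leaving out an array leaves 1 in a group, that array is assumed to vary like the others.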

Additional observations from a re-analysis of the deposited data

Results flagged for a closer look

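The response of Cxcr2 at 6 h differed between the genotypes by a test of the difference itself: the KO response minus the wt response was -3.22 on the log2 scale (adjusted p = 0.0226, limma), with 0.40 in KO liver and 3.61 in wt liver. It lost its call without 5 of the 12 arrays, with adjusted p up to 0.088. Neutrophil markers moved with it, and their part in the difference was not tested.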

How the results depend on the processing

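Of 95 member calls over the 11 comparisons, 46 were kept without each of the 12 arrays, 90 with the replicate number as a block, 82 with quantile normalization, 89 without the filter on the mean, 92 with 16 added to each value and 72 with the compared groups only. No call changed direction under any of these. With a mean log2 of at least 7, which leaves 13 members, the counts were 6 (main 13) for KO at 6 h, 8 (19) for wt at 6 h, 8 (13) and 10 (21) for 6 h against 2 h in KO and wt liver, 1 (0) for KO against wt at 2 h and 0 (1) for the response difference at 6 h. With 16 added, the last 2 were 1 and 2. With the compared groups only, wt at 2 h had 16 (10), KO against wt 1 (0) at 2 h and 1 (9) at 6 h, and the response difference at 6 h 0. Leaving out 1 array gave 6 to 11 members for KO at 2 h, 9 to 14 for KO at 6 h, 4 to 12 for wt at 2 h, 14 to 20 for wt at 6 h, 8 to 14 and 10 to 21 for 6 h against 2 h in KO and wt liver, 0 to 0, 0 to 1 and 2 to 9 for KO against wt untreated, at 2 h and at 6 h, and 0 to 0 and 0 to 7 for the response difference at 2 h and 6 h. The lowest 6 h genotype count was without KO 6 h replicate 2 and the 7 without KO 6 h replicate 1. Over all tested genes, KO against wt at 2 h had 342 calls, and 197 with quantile normalization (99 higher and 98 lower, against 70 and 272), 52 with the compared groups only, 550 with the block and 8 to 777 without 1 array. KO against wt at 6 h had 1538, 142 with the compared groups only and 172 to 1691 without 1 array. The response difference at 6 h had 83, and 18 to 286, and that at 2 h had 5, and 1 (mean of at least 7), 8 (16 added), 23 (compared groups only) and 2 to 33. KO at 6 h against 2 h had 5401, and 3101 with the compared groups only. KO against wt untreated had 1, and 0 to 3 without 1 array. Without 1 array, KO at 2 h had 2935 to 5471 (main 5353), KO at 6 h 3845 to 6072 (5949), wt at 2 h 800 to 2317 (2166), wt at 6 h 4162 to 6727 (6554) and wt at 6 h against 2 h 2460 to 4946 (4727). For all genes in KO at 2 h, quantile normalization moved the share of calls that were higher to 44.6% from 33.9%. The replicate numbers gave correlations of deviations of -0.134 to 0.185 over 15 pairs of groups, 4 of them over 0.1. These correlations are low, but they cannot exclude that the numbers pair the samples. The causes were not tested. Low signal limits 36 of the 49 members.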
